A study of Mus musculus with 6 samples.

Results

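The translation factors of the cytoplasm start protein synthesis at the correct codon and move the ribosome along the mRNA, and their mRNA levels were compared between undifferentiated and dexamethasone-differentiated CAD cells. The members are the protein-coding genes whose Ensembl 96 symbol starts with Eif1 to Eif6, or with Eef1 or Eef2. The eIF2α kinase genes and the eIF4E-binding protein genes share this naming and are given apart, and Eif2ak2 is not analysed here. This rule took 61 of the 55536 genes counted, of which 22028 are protein-coding, and set 6 regulators apart. It used names and no measured value. It also took genes that are not initiation or elongation factors themselves, among them the enzymes that modify eEF1A and eEF2, the kinase Eef2k, the eIF4E carrier Eif4enif1 and Eif4a3 of the exon junction complex.

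CAD is a mouse cell line of the central nervous system with a catecholaminergic character, from a C57BL/6 x DBA/2 background and transformed by simian virus 40. Both groups are of this line, and expression of the viral genes was not measured. Undifferentiated cells (3 libraries) were grown in medium with 8% fetal bovine serum and no steroid, and differentiated cells (3 libraries) were kept for 5 days in 100 µM dexamethasone, a synthetic glucocorticoid, with 1% serum. Steroid, lower serum and days in culture cannot be told apart, and neither can fewer dividing cells and less RNA per cell, since these are bulk libraries.

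Initiation begins when eIF2 brings the initiator tRNA to the small ribosomal subunit, helped by eIF1, eIF1A and the multi-subunit scaffold eIF3. The eIF4 factors bring the mRNA by its cap and unwind it, eIF5 and eIF5B complete the joining of the large subunit, and eIF2B reloads eIF2 with GTP. During elongation eEF1A delivers aminoacyl-tRNAs, its partner subunits recharge it with GTP, and eEF2 moves the ribosome to the next codon. Cells tune these steps mainly by phosphorylating eIF2α, eEF2 and the eIF4E-binding proteins, which mRNA levels do not show.

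Most initiation factors were lower in differentiated cells, while Eef1a1, Eef1a2 and Eef2, the genes of eEF1A and eEF2, were higher. Of the 61 members, 58 passed the filter on low counts and were tested with edgeR's quasi-likelihood test, adjusted by Benjamini-Hochberg over 12664 genes. At an adjusted p under 0.05, 41 of the 58 fell and 10 rose, and 7 were not called. Of all genes tested, 38.6% were called lower and 40.3% higher, and 78.9% were called in either direction. The members' median log2 fold change was -0.47, with quartiles at -0.86 and -0.11, beside a median of 0.02 and quartiles at -0.55 and 0.69 over all genes tested. In 42 tested members every differentiated library lay below every undifferentiated library, in 10 every one lay above, and in 6 the groups overlapped. Of all genes tested, 38.9% lay below and 41% above in this way, 79.9% in either direction. At least 2-fold falls were called in 10 members and at least 2-fold rises in 0, beside 12.2% and 17.8% of all genes tested. The median absolute log2 change was 0.49 in members and 0.61 over all genes.

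**Figure D1:**
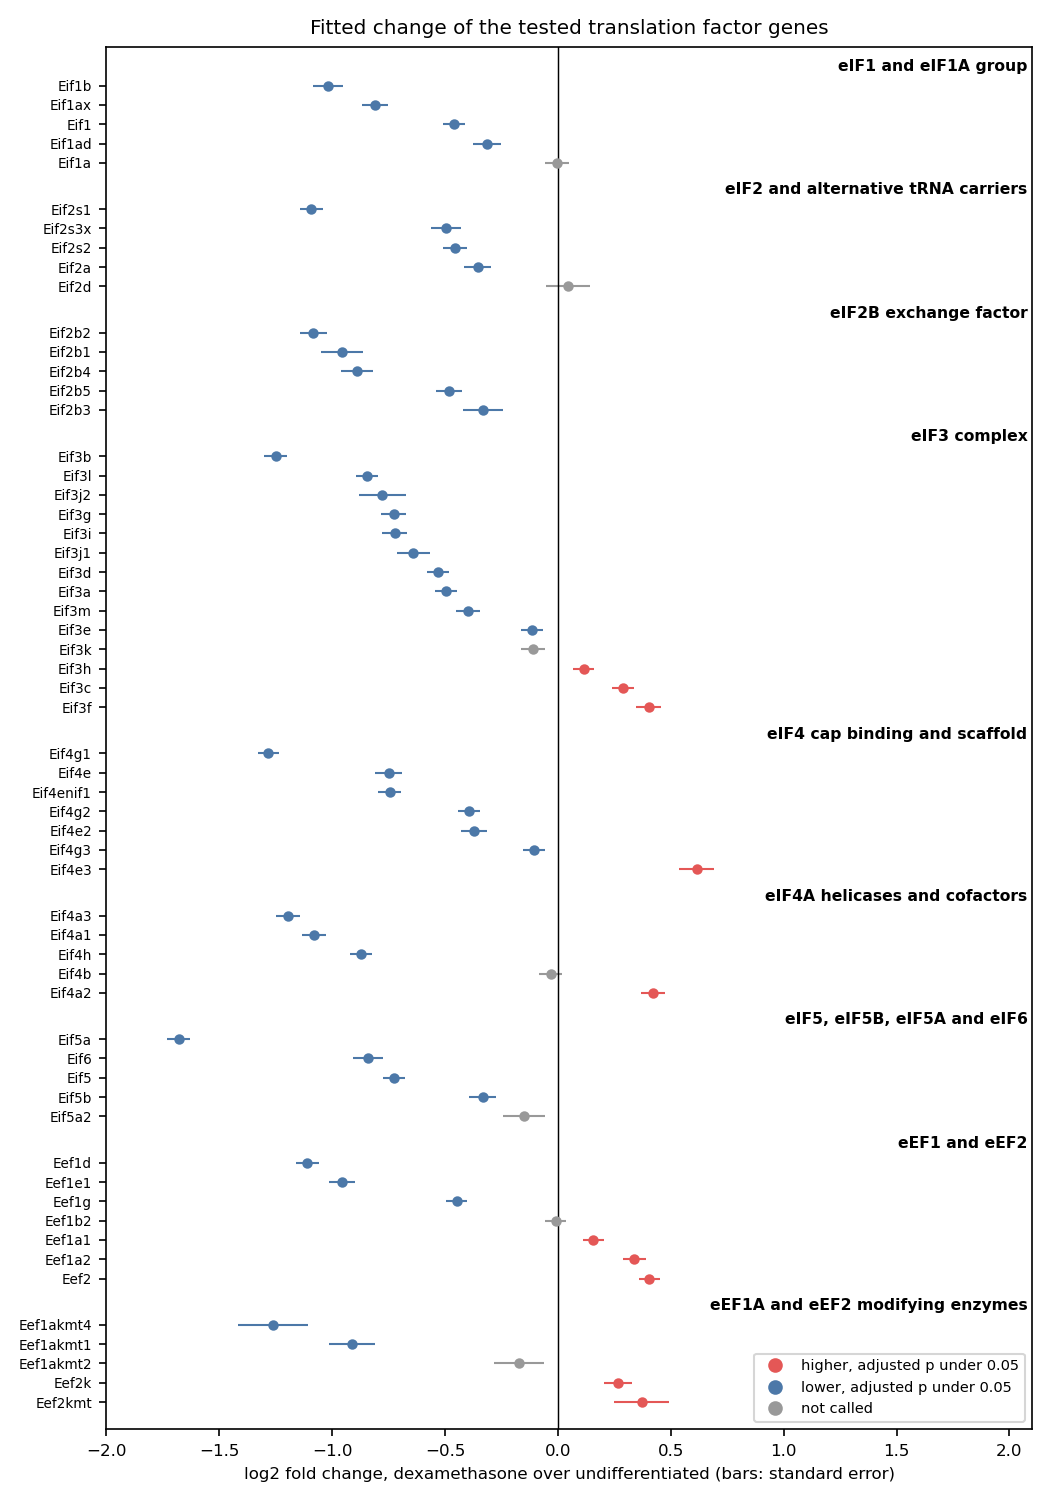
Log2 fold change of each tested member, dexamethasone minus undifferentiated, grouped by factor, with bars for 1 SE of the edgeR fit. Points left of 0 fell; Eif5a lies furthest left at -1.68 and Eif4e3 furthest right at 0.62.

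**Figure D2:**
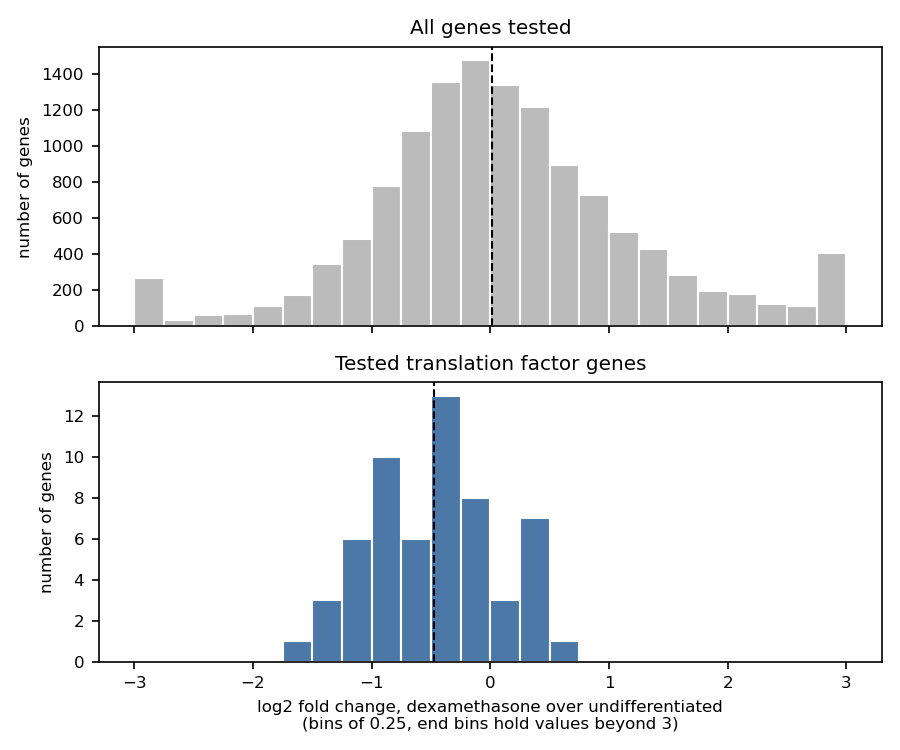
Distribution of log2 fold changes, dexamethasone minus undifferentiated, over all 12664 genes tested and over the 58 tested members. The members' median lies at -0.47 and that of all genes at 0.02.

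Short stretches of the members' promoters are printed below with the motifs they hold. They come from RefSeq, in a table of GRCm38.p6 with 250 bases before and 50 after each annotated start, which held 47 of the 61 members. The E-box CACGTG, a palindrome known as the binding motif of Myc and Max, is shown because it occurs both in members that fell and in members that rose. The lines are examples. Of the 5 largest falls, Eif3b and Eif4a3 held no E-box in their windows, and that of Eef1akmt4 is not printed. Capitals mark the 6 bases of the E-box, and each line reads 5′ to 3′ along the gene. The first 6 lines belong to genes that fell and the last 2 to genes that rose.
Eif5a: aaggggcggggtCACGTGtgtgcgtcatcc
Eif4g1: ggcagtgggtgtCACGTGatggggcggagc
Eif4e: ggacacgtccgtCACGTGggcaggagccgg
Eif4a1: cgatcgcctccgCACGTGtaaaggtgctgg
Eif1b: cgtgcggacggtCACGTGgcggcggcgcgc
Eif4h: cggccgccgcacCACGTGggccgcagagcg
Eef2: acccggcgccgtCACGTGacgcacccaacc
Eif3f: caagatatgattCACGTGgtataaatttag
These stretches lie at chr11:69921443-69921472, minus strand (Eif5a), chr16:20672661-20672690, plus strand (Eif4g1), chr3:138527192-138527221, plus strand (Eif4e) and chr11:69672595-69672624, minus strand (Eif4a1). The others lie at chr9:120492570-120492599, plus strand (Eif1b), chr5:134639488-134639517, minus strand (Eif4h), chr10:81176576-81176605, plus strand (Eef2) and chr7:108934335-108934364, plus strand (Eif3f). Of the 46 tested members in the table, 13 (28.3%) held CACGTG in a window, beside 11.9% of the 9365 tested genes in the table. By call, it stood in 8 of 32 members that fell, 3 of 8 that rose and 2 of 6 that were not called. Members with several annotated starts, 6 in all, were searched in every window.

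Messenger RNAs of the translation machinery often begin with a run of pyrimidines, the terminal oligopyrimidine motif through which mTOR signalling controls their translation. Runs of at least 8 C or T bases that begin with C were searched on the gene's strand from 15 bases before to 35 after the start. Such a run need not be terminal: it began before the start in Eif3f, Eef1a1 and Eif2b5. In Eef1a1 the TATA-like sequence tatataa follows the run, so this run may lie before the true start of the mRNA. In Eif3l the run began at base 5 after the start, in Eef1a2 at base 18 and in Eef2k at base 24. Runs inside the transcript were not set apart in the counts. They are shown for a pair of members that rose, Eif3f and Eef1a1, and a pair that fell, Eif2b5 and Eif3l, with the run in capitals.
Eif3f: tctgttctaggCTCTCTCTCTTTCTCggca
Eef1a1: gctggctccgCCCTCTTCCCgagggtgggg
Eif2b5: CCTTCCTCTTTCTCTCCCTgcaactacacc
Eif3l: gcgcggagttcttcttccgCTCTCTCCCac
They lie at chr7:108934400-108934429, plus strand (Eif3f), chr9:78481710-78481739, minus strand (Eef1a1), chr16:20498802-20498831, plus strand (Eif2b5) and chr15:79075208-79075237, plus strand (Eif3l). Such a run stood in 12 of 46 tested members (26.1%) and in 17.3% of tested genes. By call, it stood in 4 of 8 members that rose, 6 of 32 that fell and 2 of 6 not called. Those that rose were Eif3f, Eef1a1, Eef1a2 and Eef2k. With runs placed as described above, these counts do not measure the terminal motif. Of other motifs searched on both strands, CCGGAAG, the core of ETS factor sites, stood in 15 members (32.6%) beside 21.1% of tested genes. It was found in 12 of 32 members that fell, 1 of 8 that rose and 2 of 6 not called. The palindromic motif of NRF1, a factor of respiratory genes, stood in 1 member (2.17%) beside 2.47% of tested genes. The motifs were chosen after the members' values had been seen, no test was made on these shares, and a match is not a site shown to be bound.

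The subunits of eIF2 and all those of its exchange factor eIF2B were lower in differentiated cells. In the group of eIF2 and the alternative carriers of initiator tRNA, 4 of 5 tested members fell and 0 rose. Of all genes tested, 38.6% were called lower and 40.3% higher, and the group's median log2 fold change was -0.46. Eif2s1 encodes eIF2α, the subunit whose phosphorylation slows initiation under stress (ENSMUSG00000021116, chromosome 12, 78861819 to 78887010). It measured 375, 379 and 389 CPM in undifferentiated replicates 1, 2 and 3 and 186, 177 and 172 CPM in dexamethasone replicates 1, 2 and 3, where CPM is counts per 1000000 reads after TMM scaling. Every differentiated library lay below every undifferentiated library, and the fitted fall was 2.13-fold (log2 fold change -1.09 ± 0.050 SE, edgeR adjusted p = 3.67e-17). The β subunit Eif2s2 fell 1.37-fold and the X-linked γ subunit Eif2s3x 1.41-fold, less than the α subunit; 34.2% of the 75-base words of Eif2s3x also occur in transcripts of other genes, so its level is uncertain. Eif2a, an alternative carrier, fell 1.28-fold. Eif2d, which can also deliver tRNA, stood at 23.4 ± 2.02 CPM in undifferentiated and 24.2 ± 0.355 CPM in differentiated cells (SD, n = 3), with overlapping groups, and was not called (edgeR adjusted p = 0.674). Eif2s3y, the Y-linked γ subunit, had 0 reads in all 6 libraries, as did the Y-linked Ddx3y, Kdm5d and Uty, although the labels give the line as male. Xist, the RNA of the inactive X chromosome, had 2721 to 3894 reads in undifferentiated and 2931 to 4217 in differentiated libraries.

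For eIF2B, 5 of 5 subunits fell, beside 38.6% of all genes tested. Their median log2 fold change was -0.89. Eif2b2, the β subunit and the most abundant of the complex per length (ENSMUSG00000004788, chromosome 12, 85219481 to 85226628), measured 223, 220.5 and 208 CPM in undifferentiated replicates 1, 2 and 3 and 94.2, 106 and 108 CPM in dexamethasone replicates 1, 2 and 3. The groups did not overlap, and Eif2b2 fell 2.12-fold (log2 fold change -1.08 ± 0.058 SE, edgeR adjusted p = 1.16e-15). The α subunit Eif2b1 fell 1.94-fold and the δ subunit Eif2b4 1.86-fold, so that the 3 subunits of the regulatory core fell more than the catalytic pair. Of that pair, Eif2b5, the ε subunit that catalyses GTP exchange, fell 1.40-fold and the γ subunit Eif2b3 1.26-fold. The summed level of the 5 genes was 537 ± 16.6 CPM in undifferentiated and 313 ± 11.4 CPM in differentiated cells (SD, n = 3). Whether subunits of eIF2 or of eIF2B differed from each other in their fall was not tested.

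Of the genes named after eIF1 and eIF1A, which keep the scanning ribosome faithful to the start codon, 4 of 5 fell and 0 rose. Their median log2 fold change was -0.46, and of all genes tested 38.6% were called lower and 40.3% higher. Eif1, the main gatekeeper of start codon choice (ENSMUSG00000035530, chromosome 11, 100319885 to 100322096), measured 415, 395 and 415 CPM in undifferentiated replicates 1, 2 and 3 and 299, 294 and 298 CPM in dexamethasone replicates 1, 2 and 3. All differentiated libraries were lower, and Eif1 fell 1.38-fold (log2 fold change -0.46 ± 0.048 SE, edgeR adjusted p = 1.38e-09). Its paralogue Eif1b measured 88.0, 92.9 and 91.2 CPM in the undifferentiated and 45.6, 46.3 and 41.8 CPM in the dexamethasone libraries and fell 2.03-fold (log2 fold change -1.02 ± 0.067 SE, edgeR adjusted p = 9e-14). Eif1ax, which encodes eIF1A from the X chromosome, fell 1.75-fold and Eif1ad, which carries an eIF1A-like domain, fell 1.24-fold. The autosomal eIF1A gene Eif1a measured 168, 166 and 166 CPM in the undifferentiated and 162, 174 and 163 CPM in the dexamethasone libraries and was not called (edgeR adjusted p = 0.943), although with library totals its log2 fold change was 0.12 (adjusted p = 0.0349).

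The genes of the eIF3 complex moved in both directions. Of its 14 genes, 10 fell, 3 rose and 1 was not called, beside 38.6% lower and 40.3% higher of all genes tested. Their median log2 fold change was -0.51. Eif3b, the scaffold subunit that binds eIF3g and eIF3i (ENSMUSG00000056076, chromosome 5, 140419328 to 140443360), measured 732, 659 and 712 CPM in undifferentiated replicates 1, 2 and 3 and 291, 286 and 307 CPM in dexamethasone replicates 1, 2 and 3. Every differentiated library was lower, and the fitted fall was 2.38-fold (log2 fold change -1.25 ± 0.051 SE, edgeR adjusted p = 3.12e-18). Its partners Eif3g and Eif3i fell 1.66-fold and 1.65-fold. All 3 genes of this module were thus among the members that fell.

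The subunits of the structural core of eIF3, whose proteins share PCI or MPN domains, spread on both sides of 0: of its 8 genes 4 fell, 3 rose and 1 was not called. Over all genes tested, 38.6% were called lower and 40.3% higher. Eif3f, an MPN-domain subunit (ENSMUSG00000031029, chromosome 7, 108934417 to 108942951), measured 294, 271 and 268 CPM in undifferentiated replicates 1, 2 and 3 and 339.6, 369 and 393 CPM in dexamethasone replicates 1, 2 and 3. All differentiated libraries were higher, and the fitted rise was 1.32-fold (log2 fold change 0.40 ± 0.055 SE, edgeR adjusted p = 2.37e-07). Eif3c rose 1.22-fold (log2 fold change 0.29 ± 0.047 SE, edgeR adjusted p = 4.06e-06). Eif3h, the partner of Eif3f in an MPN pair and the most abundant eIF3 gene per length (ENSMUSG00000022312, chromosome 15, 51786558 to 51865523), measured 564, 538 and 546 CPM in undifferentiated replicates 1, 2 and 3 and 608, 577 and 599 CPM in dexamethasone replicates 1, 2 and 3. Its groups did not overlap, yet the rise was 1.08-fold (log2 fold change 0.11 ± 0.047 SE, edgeR adjusted p = 0.0293) and was not called without undifferentiated replicate 2 or 3 (log2 fold changes 0.10 and 0.11) or without dexamethasone replicate 3 (0.11). It was not called either among protein-coding genes alone (0.10, adjusted p = 0.0611) or with a replicate block (0.11, adjusted p = 0.0518). Within the same core, Eif3l fell 1.80-fold, Eif3a, the largest subunit, 1.41-fold and Eif3m 1.32-fold. Eif3e fell 1.08-fold with overlapping groups (edgeR adjusted p = 0.0389), a direction that turned to 0.01 on the log2 scale with library totals in place of TMM factors. That call was also lost without undifferentiated replicate 1 or 3 (-0.09 and -0.11) or dexamethasone replicate 2 or 3 (-0.07 and -0.12). Eif3k missed the threshold (edgeR adjusted p = 0.0604) with a log2 fold change of -0.11. It was called lower with RLE factors (-0.12, adjusted p = 0.0455) and among protein-coding genes alone (-0.13, adjusted p = 0.0274), and stood at 0.01 with library totals. Eif3d, the subunit known to bind the cap of some mRNAs, fell 1.45-fold, and 34.2% of its 75-base words are shared with another gene.

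The loosely bound subunit eIF3j comes from a pair of genes. Eif3j1 measured 71.2, 79.1 and 82.0 CPM in the undifferentiated and 53.9, 46.5 and 48.2 CPM in the dexamethasone libraries and fell 1.56-fold. Eif3j2 measured 38.0, 43.2 and 43.3 CPM in the undifferentiated and 29.6, 21.4 and 21.1 CPM in the dexamethasone libraries and fell 1.71-fold. Both genes are uncertain in level, because 47.3% of the 75-base words of Eif3j1 and 87.4% of those of Eif3j2 also occur in transcripts of other genes, and reads matching several places were not counted.

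**Figure D3:**
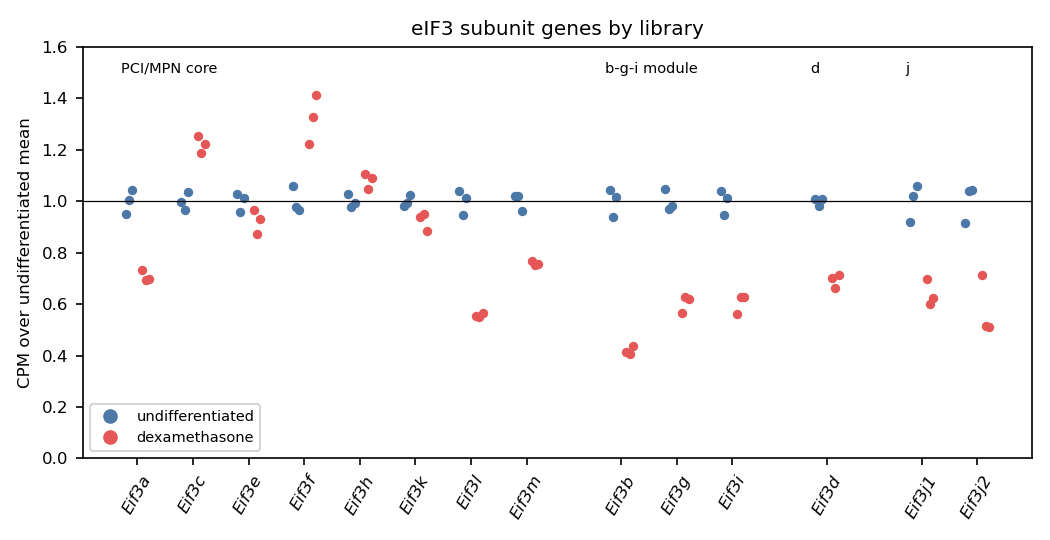
CPM of the 14 eIF3 genes over their undifferentiated mean, ordered by structural module, with a point for each library and a line at 1. The dexamethasone points of Eif3b, Eif3g and Eif3i all lie below 1, whereas those of Eif3f, Eif3c and Eif3h of the core lie above it.

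The cap-binding factors and their scaffolds fell with 1 exception. Of 7 tested members 6 fell and 1 rose, beside 38.6% and 40.3% of all genes tested. Their median log2 fold change was -0.40. Eif4g1, the scaffold that joins cap, helicase and poly(A)-binding protein (ENSMUSG00000045983, chromosome 16, 20668313 to 20692884), measured 1221, 1216 and 1228 CPM in undifferentiated replicates 1, 2 and 3 and 503, 509.5 and 493 CPM in dexamethasone replicates 1, 2 and 3. The groups lay far apart, and Eif4g1 fell 2.43-fold (log2 fold change -1.28 ± 0.046 SE, edgeR adjusted p = 1.41e-19). Its paralogue Eif4g3 measured 407, 424 and 426 CPM in the undifferentiated and 379, 398 and 391 CPM in the dexamethasone libraries and fell 1.08-fold (edgeR adjusted p = 0.0441), a direction that turned to 0.02 on the log2 scale with library totals. With 1 library left out, the call held only where that was undifferentiated replicate 1, and without each of the others it was lost at log2 fold changes of -0.12 to -0.08. Eif4g2, a scaffold that lacks the eIF4E-binding site and serves cap-independent initiation (ENSMUSG00000005610, chromosome 7, 111067750 to 111083030), measured 1855, 1891 and 1981 CPM in undifferentiated replicates 1, 2 and 3 and 1529, 1402 and 1422 CPM in dexamethasone replicates 1, 2 and 3. All differentiated libraries lay below the undifferentiated ones, and Eif4g2 fell 1.32-fold (log2 fold change -0.40 ± 0.048 SE, edgeR adjusted p = 2.74e-08).

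Eif4e, the cap-binding protein (ENSMUSG00000028156, chromosome 3, 138526179 to 138559696), measured 123, 122 and 127 CPM in undifferentiated replicates 1, 2 and 3 and 79.2, 69.5 and 71.5 CPM in dexamethasone replicates 1, 2 and 3. All differentiated libraries were lower, and the fall was 1.68-fold (log2 fold change -0.75 ± 0.061 SE, edgeR adjusted p = 1.08e-11). Eif4e2, a relative that represses rather than starts translation, fell 1.29-fold, and Eif4enif1, which carries eIF4E into the nucleus and to P-bodies, fell 1.68-fold. Eif4e3, a divergent cap-binding relative, was the exception (ENSMUSG00000093661, chromosome 6, 99625135 to 99666771). It measured 50.6, 49.2 and 51.9 CPM in undifferentiated replicates 1, 2 and 3 and 86.3, 77.6 and 66.9 CPM in dexamethasone replicates 1, 2 and 3. Each differentiated library was above each undifferentiated one, with dexamethasone replicate 1 the highest, and Eif4e3 rose 1.53-fold (log2 fold change 0.62 ± 0.078 SE, edgeR adjusted p = 6.33e-08). Of its annotated length, 14.8% overlaps exons of Gm20696 on the same strand. Eif4e1b, the oocyte form, had 0 reads in all libraries, and 3 reads would have been 0.327 to 0.487 CPM.

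Of the eIF4A helicases and their cofactors, 3 of 5 fell and 1 rose, beside 38.6% and 40.3% of all genes tested. Their median log2 fold change was -0.87. Eif4a1, the helicase that unwinds 5′ leaders (ENSMUSG00000059796, chromosome 11, 69666936 to 69672423), measured 401, 392 and 417 CPM in undifferentiated replicates 1, 2 and 3 and 203, 179.8 and 189 CPM in dexamethasone replicates 1, 2 and 3. It was lower in every differentiated library, and the fitted fall was 2.11-fold (log2 fold change -1.08 ± 0.053 SE, edgeR adjusted p = 1.55e-16). Its close paralogue Eif4a2 (ENSMUSG00000022884, chromosome 16, 23107444 to 23114136) measured 161, 171 and 170.0 CPM in undifferentiated replicates 1, 2 and 3 and 225, 216 and 230.2 CPM in dexamethasone replicates 1, 2 and 3. Here every differentiated library was higher, and the fitted rise was 1.34-fold (log2 fold change 0.42 ± 0.052 SE, edgeR adjusted p = 3.65e-08). Eif4a3, the helicase core of the exon junction complex that marks spliced mRNA (ENSMUSG00000025580, chromosome 11, 119288363 to 119300089), measured 225, 217 and 217 CPM in undifferentiated replicates 1, 2 and 3 and 99.5, 93.7 and 94.6 CPM in dexamethasone replicates 1, 2 and 3. The groups were apart, and Eif4a3 fell 2.29-fold (log2 fold change -1.20 ± 0.054 SE, edgeR adjusted p = 2.09e-17). Of the cofactors that stimulate the helicase, Eif4h fell 1.83-fold. Eif4b measured 694, 715 and 720.0 CPM in the undifferentiated and 748, 660.4 and 673 CPM in the dexamethasone libraries, with overlapping groups, and was not called (edgeR adjusted p = 0.561).

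The largest fall of any member was that of Eif5a, which encodes a factor that carries the modified amino acid hypusine and helps the ribosome through difficult sequences and termination (ENSMUSG00000078812, chromosome 11, 69916714 to 69921958). It measured 1842, 1792 and 1665 CPM in undifferentiated replicates 1, 2 and 3 and 546, 566 and 541 CPM in dexamethasone replicates 1, 2 and 3. The differentiated libraries lay close together and far below the undifferentiated ones, a fall of 3.20-fold (log2 fold change -1.68 ± 0.050 SE, edgeR adjusted p = 1.87e-21). Its share of all member reads was 5.64% to 6.21% in undifferentiated and 2.15% to 2.30% in differentiated libraries. The paralogue Eif5a2 measured 27.3, 26.6 and 29.7 CPM in the undifferentiated and 25.8, 24.0 and 25.5 CPM in the dexamethasone libraries. Its groups did not overlap, but it was not called (log2 fold change -0.15, edgeR adjusted p = 0.14). Of this group of late-acting factors 4 of 5 fell and 0 rose, beside 38.6% and 40.3% of all genes tested. The group's median was -0.73. Eif6, which keeps the large subunit from joining too early, fell 1.79-fold, Eif5, the GTPase activator of eIF2, 1.65-fold, and Eif5b, which joins the subunits, 1.26-fold. The group's summed level was 2834 ± 48.0 CPM in undifferentiated and 1304 ± 41.4 CPM in differentiated cells (SD, n = 3).

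Among the elongation factor genes, those of eEF1A and eEF2 rose, while 2 of the 3 subunits of the eEF1A exchange complex fell. Of 7 eEF1 and eEF2 genes 3 rose, 3 fell and 1 was not called, with a median log2 fold change of -0.01. Among all genes tested, 40.3% were called higher and 38.6% lower. Eef1a1, the main carrier of aminoacyl-tRNA (ENSMUSG00000037742, chromosome 9, 78478449 to 78489151), measured 5137, 5008 and 5042 CPM in undifferentiated replicates 1, 2 and 3 and 5827, 5443 and 5666 CPM in dexamethasone replicates 1, 2 and 3. All differentiated libraries were higher, and the fitted rise was 1.12-fold (log2 fold change 0.16 ± 0.046 SE, edgeR adjusted p = 0.00294). Eef1a2, the form of neurons and muscle (ENSMUSG00000016349, chromosome 2, 181147653 to 181157014), measured 381, 367 and 379 CPM in undifferentiated replicates 1, 2 and 3 and 455, 497 and 473 CPM in dexamethasone replicates 1, 2 and 3. It was also higher in every differentiated library, and the fitted rise was 1.26-fold (log2 fold change 0.34 ± 0.049 SE, edgeR adjusted p = 5.07e-07). Eef2, the translocase (ENSMUSG00000034994, chromosome 10, 81176631 to 81182498), measured 3863, 3578 and 3705 CPM in undifferentiated replicates 1, 2 and 3 and 4759, 4935 and 5065 CPM in dexamethasone replicates 1, 2 and 3. Its groups did not overlap, and it rose 1.32-fold (log2 fold change 0.40 ± 0.047 SE, edgeR adjusted p = 1.21e-08).

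The subunits of the complex that recharges eEF1A with GTP did not rise with it. Eef1d, the δ subunit (ENSMUSG00000055762, chromosome 15, 75894205 to 75909556), measured 519.5, 473 and 490.1 CPM in undifferentiated replicates 1, 2 and 3 and 234, 223 and 230.2 CPM in dexamethasone replicates 1, 2 and 3. Every differentiated library was lower, and the fitted fall was 2.16-fold (log2 fold change -1.11 ± 0.051 SE, edgeR adjusted p = 3e-17). Eef1g, the γ subunit, fell 1.36-fold, and 38.0% of its 75-base words also occur in transcripts of other genes. Eef1b2, the β subunit, measured 828, 846 and 852 CPM in the undifferentiated and 869, 837 and 804 CPM in the dexamethasone libraries and was not called (edgeR adjusted p = 0.867), although with library totals its log2 fold change was 0.12 (adjusted p = 0.0186). Eef1e1, a scaffold of the multi-tRNA-synthetase complex, fell 1.94-fold.

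Eef1a1 and Eef2 were the most abundant members and took a larger share of the family's reads in differentiated cells. Per length, the level of Eef1a1 went from 2031 ± 26.8 to 2264 ± 77.5 RPKM (SD, n = 3) in differentiated cells, where RPKM is CPM per kilobase of annotated exons. That of Eef2 went from 1118 ± 42.8 to 1480.0 ± 46.2 RPKM (SD, n = 3), and that of Eif5a, the next most abundant member in undifferentiated cells, from 743 ± 38.5 to 232 ± 5.62 RPKM (SD, n = 3). In differentiated cells Eif3h, Eef1b2 and Eef1g, at means of 369, 330.4 and 289 RPKM, stood above Eif5a. By the mean of all 6 libraries Eef1a1 and Eef2 ranked 7 and 14 among all genes. Together Eef1a1 and Eef2 took 29.6% to 30.3% of member reads in undifferentiated and 41.8% to 42.8% in differentiated libraries. All 61 members took 2.78% to 2.83% and 2.58% to 2.63% of counted reads. The other 59 members took 1.95% to 1.98% in undifferentiated and 1.49% to 1.52% in differentiated libraries. Reads of Eef1a1 may be undercounted, since 26.6% of its 75-base words are shared with 14 other genes, 13 of them pseudogenes.

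The enzymes that modify the elongation factors moved in both directions. Of 5 tested, 2 rose, 2 fell and 1 was not called, close to the 40.3% called higher and 38.6% called lower of all genes tested. Eef2k, the kinase that inhibits eEF2, measured 100.1, 90.1 and 88.0 CPM in the undifferentiated and 109, 117 and 109 CPM in the dexamethasone libraries and rose 1.20-fold (log2 fold change 0.27 ± 0.061 SE, edgeR adjusted p = 0.000313). Eef2kmt, a methyltransferase of eEF2 (ENSMUSG00000022544, chromosome 16, 5244152 to 5255983), measured 13.9, 13.9 and 13.3 CPM in undifferentiated replicates 1, 2 and 3 and 15.5, 18.9 and 19.1 CPM in dexamethasone replicates 1, 2 and 3. Its groups did not overlap, and it rose 1.29-fold (log2 fold change 0.37 ± 0.122 SE, edgeR adjusted p = 0.0075), but DESeq2 did not call it (adjusted p = 0.0658). Eef1akmt4, known in human cells as a methyltransferase of eEF1A (ENSMUSG00000115219, chromosome 16, 20611593 to 20619011), measured 16.3, 12.9 and 15.3 CPM in undifferentiated replicates 1, 2 and 3 and 5.98, 6.43 and 5.96 CPM in dexamethasone replicates 1, 2 and 3. All differentiated libraries were lower, and it fell 2.40-fold (log2 fold change -1.26 ± 0.155 SE, edgeR adjusted p = 3.15e-08); exons of Gm49333 cover 30.7% of its length on the same strand. Eef1akmt1, the most abundant of these enzymes per length, measured 30.2, 26.9 and 28.9 CPM in the undifferentiated and 14.9, 15.3 and 15.5 CPM in the dexamethasone libraries and fell 1.88-fold (log2 fold change -0.91 ± 0.101 SE, edgeR adjusted p = 5.19e-09). Eef1akmt2 was not called (edgeR adjusted p = 0.161), except without undifferentiated replicate 3 (log2 fold change -0.26, adjusted p = 0.0475). Eef1akmt3, with 25 reads in undifferentiated and 12 in differentiated libraries, did not pass the filter.

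Within paralogue pairs the balance of the RNAs shifted, most of all between the eIF5A and the eIF4A genes. Such a ratio per length is taken within a library and does not depend on the scaling between libraries. Its level, unlike its log2 change, depends on the annotated exon lengths, which may differ from those of the transcripts expressed. The ratio of Eif4a1 to Eif4a2 was 3.08, 2.82 and 3.02 in the undifferentiated and 1.11, 1.02 and 1.01 in the dexamethasone libraries. Per annotated length, Eif4a1 was thus the more abundant form in undifferentiated cells, and the forms were nearly level in differentiated cells, a log2 change of -1.50. For Eif5a to Eif5a2 the ratio was 143, 142 and 119 in the undifferentiated and 44.8, 49.9 and 44.9 in the dexamethasone libraries. Eif5a remained far more abundant in all libraries, with a log2 change of -1.53.

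The ratio of Eif4g1 to Eif4g3 was 4.54, 4.34 and 4.37 in the undifferentiated and 2.01, 1.94 and 1.91 in the dexamethasone libraries, a log2 change of -1.18. That of Eif4e to Eif4e3 was 1.01, 1.03 and 1.02 in the undifferentiated and 0.384, 0.375 and 0.448 in the dexamethasone libraries, a log2 change of -1.35. Which of the 2 genes was more abundant depends on their annotated lengths, 6008 and 2515 bases. In reads, Eif4e had 867, 954 and 782 and Eif4e3 358, 386 and 320 in the undifferentiated libraries. In the dexamethasone libraries they had 715, 638 and 480 and 779, 712 and 449. The ratio of Eif1 to Eif1b moved the other way and was 2.53, 2.28 and 2.44 in the undifferentiated and 3.51, 3.40 and 3.82 in the dexamethasone libraries, a log2 change of 0.57. For Eef1a1 to Eef1a2 it was 11.3, 11.4 and 11.1 in the undifferentiated and 10.7, 9.15 and 10.0 in the dexamethasone libraries, a log2 change of -0.18. In these 6 pairs the groups did not overlap (two-sided exact permutation p = 0.1 each, the smallest that 3 libraries against 3 allow, and 0.117 after adjustment over 7 pairs). Of single genes tested, 79.9% did not overlap either, and no share was computed for ratios of other gene pairs. For Eif3j1 to Eif3j2 the groups overlapped (exact permutation p = 0.4). Of the words of Eif4a1, 25.4% are shared with other genes and its level is uncertain to that extent.

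**Figure D4:**
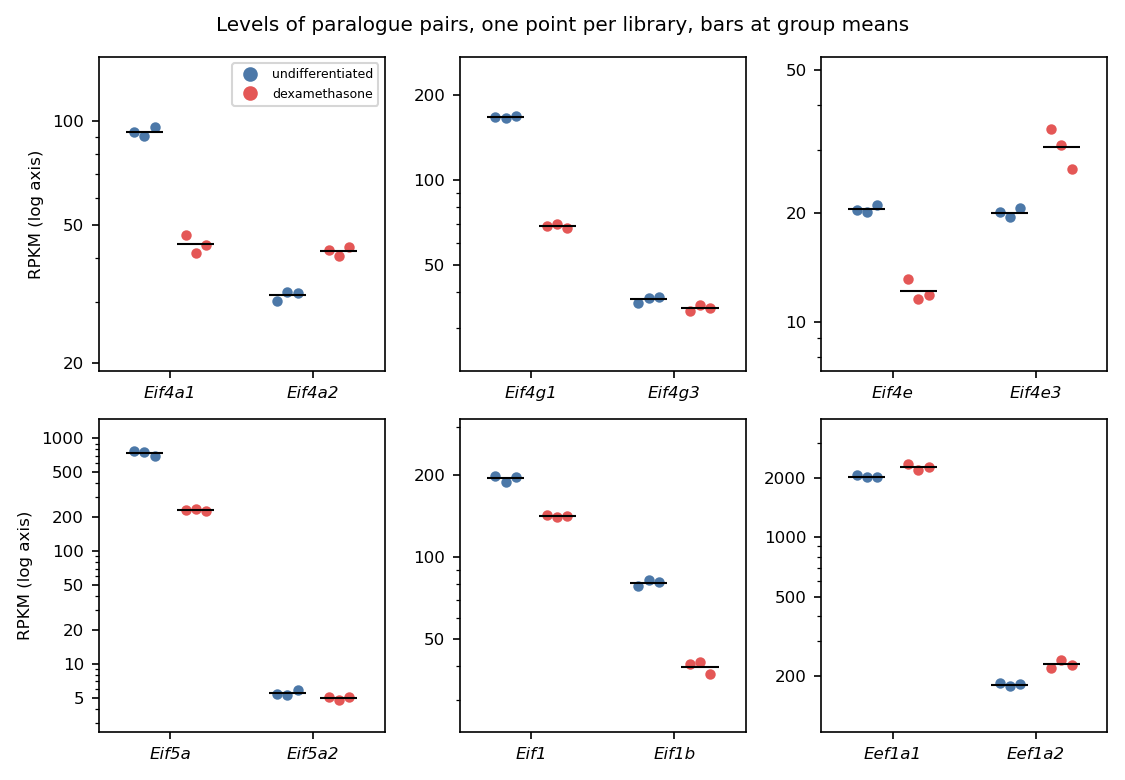
Level per length of both genes of 6 paralogue pairs, in RPKM on a log axis, with a point for each of the 3 undifferentiated and 3 dexamethasone libraries and bars at the group means. Eif4a1 and Eif4a2 lie apart in undifferentiated and nearly level in differentiated libraries.

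The regulators that carry factor names moved in both directions, and none of those tested by 2-fold. Of the eIF2α kinases, the heme-regulated Eif2ak1 measured 105, 102 and 119 CPM in the undifferentiated and 93.3, 82.6 and 88.9 CPM in the dexamethasone libraries and fell 1.22-fold (log2 fold change -0.29 ± 0.066 SE, edgeR adjusted p = 0.000237). The kinase of the endoplasmic reticulum, Eif2ak3, measured 42.7, 48.9 and 45.9 CPM in the undifferentiated and 54.9, 53.3 and 46.0 CPM in the dexamethasone libraries and was not called (log2 fold change 0.17, edgeR adjusted p = 0.0518). It was called higher with upper quartile factors (0.27), library totals (0.30), no filter (0.19) and a filter of 1 CPM (0.18). The same held when mitochondrial and ribosomal protein genes (0.18), undifferentiated replicate 2 (0.23) or dexamethasone replicate 3 (0.24) were left out. Eif2ak4, which senses uncharged tRNA, measured 35.8, 35.1 and 37.0 CPM in the undifferentiated and 35.8, 39.6 and 34.0 CPM in the dexamethasone libraries and was not called (edgeR adjusted p = 0.768). Of the proteins that block eIF4E from its scaffold, Eif4ebp1 measured 155, 154 and 138 CPM in the undifferentiated and 175, 206 and 208 CPM in the dexamethasone libraries and rose 1.31-fold (log2 fold change 0.39 ± 0.063 SE, edgeR adjusted p = 3e-06). Eif4ebp2 measured 122, 116 and 119 CPM in the undifferentiated and 89.5, 95.8 and 91.0 CPM in the dexamethasone libraries and fell 1.29-fold (log2 fold change -0.37 ± 0.057 SE, edgeR adjusted p = 1.63e-06). The pair thus changed in opposite directions. Eif4ebp3 had 4 reads in undifferentiated and 3 in differentiated libraries and was not tested.

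Other genes of the translation pathway were taken from lists, with up to 2 called genes per direction named by smallest adjusted p, and a rise or fall means an edgeR adjusted p under 0.05. By this rule 40.3% of all genes tested rose and 38.6% fell. Among the subunits that dephosphorylate eIF2α and the kinases of eIF4E, 3 of 4 rose and 1 fell. Ppp1r15a, which directs the phosphatase to eIF2α and is induced by stress, rose 5.49-fold, from 33.8 ± 2.06 to 186 ± 26.4 CPM (SD, n = 3). Mknk1, a kinase of eIF4E, rose 3.75-fold, and Ppp1r15b, the constitutive phosphatase subunit, fell 1.21-fold. Of the poly(A) tail binding proteins and their partners 2 of 7 rose and 4 fell. Pdcd4, which inhibits eIF4A, rose 7.26-fold, from 21.6 ± 1.73 to 156 ± 10.2 CPM (SD, n = 3), and Paip2, which inhibits the poly(A)-binding protein, rose 1.76-fold. Pabpc4 fell 1.74-fold and Larp1, which binds terminal oligopyrimidine mRNAs, 1.49-fold.

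Termination and recycling factors fell in 8 of 9 cases and rose in 1. Gspt1, the release factor eRF3a, fell 2.22-fold and its paralogue Gspt2 rose 1.32-fold, while Abce1, which splits ribosomes for reuse, fell 1.86-fold. Of the enzymes that place hypusine on eIF5A or diphthamide on eEF2, 7 of 9 fell and 0 rose. Dohh, which completes hypusine, fell 2.42-fold, beside the 3.20-fold fall of its substrate Eif5a, and Dph3 of diphthamide synthesis fell 2.38-fold. Mitochondrial translation factors fell in 5 of 10 cases and rose in 3, beside 38.6% and 40.3% of all genes tested. Gfm1, a mitochondrial elongation factor G, fell 2.66-fold and Tsfm, the mitochondrial exchange factor, 2.22-fold, whereas Mtrf1 and Mrrf of release and recycling rose 1.34-fold and 1.25-fold.

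Libraries held 6411105 to 8757992 counted reads, and no pair of libraries from the same group agreed within sampling noise. Dexamethasone replicate 1 differed more from replicates 2 and 3 (chi-square per degree of freedom 3.33 and 3.34) than these did from each other (1.69). Without it 10 members rose and 40 fell, with a median log2 fold change of -0.48. Mitochondrial ribosomal RNA took 0.0634% to 0.0883% of reads in undifferentiated and 0.195% to 0.243% in differentiated libraries. Whether the libraries of a group came from separate cultures is not given in the labels, and the spread behind the p-values may then be technical. Proliferation markers fell in 6 of 6 cases. Their summed level was 2907 to 3053 CPM in undifferentiated and 144 to 164 CPM in differentiated libraries. Of 12 catecholaminergic and neuronal markers of the line, 8 rose and 4 fell, with sums of 2767 to 2848 and 12652 to 14790 CPM. Chgb and Scg2, granins of dense-core vesicles, carried most of the sum in differentiated cells, with means of 1028 and 209 CPM in undifferentiated and 10002 and 1696 CPM in differentiated cells, while the catecholamine enzymes Dbh and Ddc fell by 3.72 and 2.86 on the log2 scale. Of 16 markers of other cell types, 3 rose, 1 fell and 11 were not tested; Mog, Ptprc and Hbb-bs were at 0, and the sums were 33.3 to 37.3 and 57.8 to 59.3 CPM. The part of these shifts in the members' changes was not tested.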

How the data were processed

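Messenger RNA was sequenced in 3 undifferentiated and 3 dexamethasone libraries, grouped and numbered by the sample titles. The deposited values are raw read counts per gene. They were made by the authors with featureCounts 1.6.4 on exons of Ensembl release 96, with strand setting 1 and no option for reads that match several places, per the file headers. HISAT2 2.2.0, Trim Galore 0.6.4 and the build GRCm38.p6 are named in the submitters' processing notes. The 55536 gene identifiers were named from GENCODE M21, and coordinates are GRCm38, counted from 1.

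Members were found by symbol. The members and the gene lists were chosen with earlier results of these data known. Eif1a was added to the eIF1 list after the annotation was seen. Genes were filtered with filterByExpr (minimum count 10, minimum total 15), scaled with TMM (factors 0.953 to 1.05) and tested with edgeR 4.0.16 in R 4.3.3 with group as the only term; an adjusted p under 0.05 made a call. The common biological coefficient of variation was 4.41%. RPKM was computed here from these CPM and the gene length of the files.

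Per-library values are given for the 5 largest rises and falls among called members, the most abundant member of each factor group, paralogue pairs and regulators, and up to 2 called genes per direction are named in other lists; further members are named to account for the family. Promoter windows came from the RefSeq table. The test was checked on simulated data in which few genes changed, unlike here. That check therefore does not cover scaling or error rates where most genes are called. The alternatives tried were upper quartile and RLE factors, totals of the libraries, other filters, DESeq2 1.42.0, limma voom 3.58.1, subsets of genes, a stricter threshold, each library left out and a replicate block.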

Additional observations from a re-analysis of the deposited data

How the results depend on the processing

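Across the alternatives 9 to 12 members rose and 39 to 42 fell. The members' median log2 fold change moved from -0.47 to -0.37 with upper quartile factors, -0.35 with library totals and -0.49 with protein-coding genes alone, and was -0.49 to -0.45 with 1 library left out. Upper quartile factors and library totals moved the median of all genes by 0.10 and 0.13, and relative to it the members' median was -0.49 in both. Of 1071 pairs of a gene and an alternative, 1017 kept direction and side of the threshold. The call was lost in 27 and gained in 12, and the direction changed in 19, of which 2 also lost and 2 also gained the call; 51 of 63 genes had no change. Direction changed with upper quartile factors for Eif1a (0.098), Eif4b (0.069) and Eef1b2 (0.093), and with library totals for Eif1a (0.12), Eif3e (0.011), Eif3k (0.014), Eif4g3 (0.020), Eif4b (0.093) and Eef1b2 (0.12). Without a filter it changed for Eif1a (0.017) and Eef1b2 (0.013), and with a filter of 1 CPM for Eif1a (0.00011). With 1 library left out, the log2 fold changes ranged over 0 for Eif1a (-0.033 to 0.019), Eif2d (-0.019 to 0.10), Eif4b (-0.088 to 0.0075), Eef1b2 (-0.035 to 0.021) and Eif2ak4 (-0.034 to 0.073). The cause of these changes was not tested. With the replicate block 9 members rose and 39 fell, the median was -0.47, and 9820 genes were called beside 9997. Same-numbered libraries did not deviate together (r = -0.334, 0.0433 and -0.198 over 6348 genes), and no undifferentiated library correlated best with its own number. Deviations from the mean of so few libraries are tied to each other, so these correlations cannot show whether same-numbered libraries shared a culture or handling. Depth limits genes near 3 reads in a library.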

Other observations

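Genes named after the factors but outside the rule include 10 pseudogenes of 12 genes, of which 3 had no read. Eif4a-ps4 stood at 44.1 ± 1.33 CPM in undifferentiated and 20.3 ± 1.33 CPM in differentiated cells (SD, n = 3). It fell by 1.12 ± 0.088 (SE) on the log2 scale (edgeR adjusted p = 4.4e-12), in the direction of Eif4a1. Eif3s6-ps1 fell (log2 fold change -0.68, adjusted p = 0.00409), and Eif3s6-ps2 was not called (0.05, adjusted p = 0.667). Eefsec, the elongation factor that delivers selenocysteine, stood at 42.1 ± 5.86 and 29.3 ± 1.10 CPM (SD, n = 3) and fell by 0.52 ± 0.094 (SE) on that scale (adjusted p = 1.34e-05). These genes were chosen after their values were seen, and reads of a pseudogene and its parent may not be told apart.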
